A study of Mus musculus with 12 samples.

Results

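Interferon-stimulated genes are the transcripts that cells switch on when interferon binds its receptor. A list of 37 of them was followed in mouse liver overexpressing ChREBP, the glucose-responsive transcription factor encoded by Mlxipl. A member was read where a single gene symbol of the array annotation matched it, which gave 34 of the 37 members among 19938 genes. Isg15 and Ifi47 lie only on rows that carry several symbols and Ifi44 was not found in the annotation used here, so these 3 were not analysed. Livers came from fed male C57BL/6J mice and were taken 3 weeks after a tail vein injection of an adenovirus for ChREBP (6 mice) or of an adenovirus for GFP (6 mice). The labelled age of 8 weeks may be that at injection. GFP is a fluorescent protein without a role in metabolism. Mice of both groups carried an adenoviral vector, and no uninjected mouse was analysed here. Each group had its own virus, so an effect of ChREBP cannot be told apart from one of viral preparation or load. Each of the 12 samples is labelled as a biological replicate and was read on 1 array. Sources used here do not give the promoter of the viral transgenes, the isoform and species of the ChREBP construct, or which liver cells took up the virus.

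Type I interferons bind the receptor of Ifnar1 and Ifnar2, whose kinases Jak1 and Tyk2 act on the complex ISGF3, with Stat2 and Irf9 among its subunits. ISGF3 binds the interferon-stimulated response element of target promoters. Interferon gamma acts through Ifngr1 and Ifngr2 and leads to binding at the gamma-activated site. The induced proteins sense foreign nucleic acid, block viral replication, or restrain the pathway itself, as Usp18 does at the receptor. Hepatocytes, macrophages and lymphocytes of the liver can all respond to interferon, and adenoviral vectors are known to elicit it.

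Array values were on the log2 scale, between 2.43 and 13.68, with array medians of 5.96 to 6.05. The correlation between arrays was 0.979 to 0.995 within a group and 0.971 to 0.986 across groups. Mlxipl averaged 10.89 ± 0.08 in ChREBP livers and 9.32 ± 0.23 in GFP livers (SD, n = 6 each), and the groups did not overlap. Of the 10 hepatocyte markers, 8 were lower and 0 higher in ChREBP livers, against 13.7% and 13.3% of all genes. Their median difference, ChREBP minus GFP, was -0.24. The mean level was 11.98 to 12.10 on ChREBP arrays and 12.22 to 12.30 on GFP arrays. Hepatocyte transcripts were thus abundant in every liver, and most of these markers were somewhat lower in ChREBP livers. On the arrays of ChREBP 4 and ChREBP 5 the pancreatic acinar markers averaged 12.13 and 11.93, against 5.57 to 7.35 on the other ChREBP arrays and 5.59 to 5.78 on GFP arrays. Of those others, ChREBP 2 and ChREBP 6 also lay above the GFP arrays, at 7.35 and 6.39. The mean of the adipocyte markers stood highest on ChREBP 6 at 6.76, and on GFP 4 and GFP 6 at 6.66 and 6.61. Those means rest mostly on Adipoq, at 9.02, 8.52 and 8.32 there, and Plin1 ran only from 6.08 to 6.75 over all arrays.

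Most of the interferon-stimulated genes were higher in ChREBP livers, and none was lower. At an adjusted p under 0.05 in limma, 24 of the 34 measured members (70.6%) were higher, 0 were lower and 10 did not pass. Among all 19938 genes, 13.3% were higher, 13.7% lower and 27.0% changed in either direction. For 17 members (50%) every ChREBP array lay above every GFP array, which held for 8.33% of all genes. The median difference, ChREBP minus GFP, was 0.27 over the members and -0.04 over all genes, and 13 of the members that rose did so by at least 1.5-fold, 6 of them by at least 2-fold. Leaving out ChREBP 4 and ChREBP 5, the arrays with the highest acinar means, gave 28 higher members, and leaving out ChREBP 6 and GFP 6 gave 21. Of all 19938 genes, these fits called 2577 and 2374 higher, against 2645 with all arrays. The first of these fits kept ChREBP 2 and ChREBP 6, whose acinar means were also above those of GFP arrays. In whole liver a larger number of responding cells and more transcript per cell cannot be told apart.

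**Figure D1:**
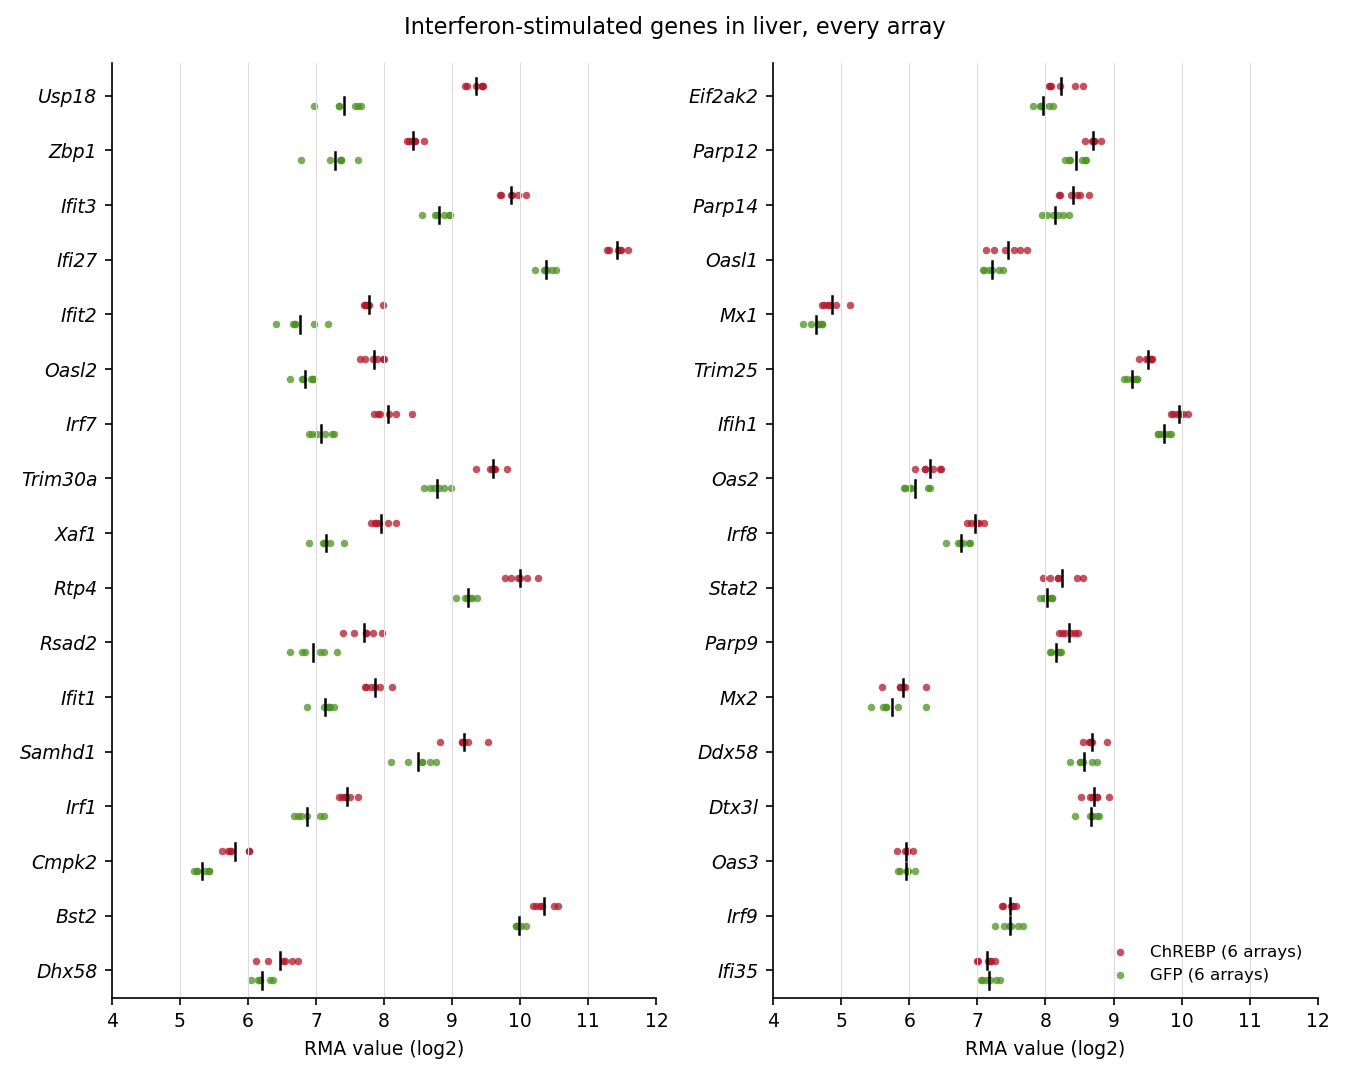
RMA value (log2, horizontal axis) of each of the 34 measured interferon-stimulated genes on every array, with the 6 ChREBP arrays in red above the 6 GFP arrays in green; black ticks mark group means and genes run down by the size of their difference. The groups are apart for Usp18 to Bst2, the first 16 genes, and for Trim25, and overlap for the other 17.

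Among the transcription factors, 3 of 5 were higher in ChREBP livers. Irf7 amplifies the type I interferon genes. Its values ran from 7.85 to 8.41 with a median of 8.01 on ChREBP arrays, and from 6.89 to 7.26 with a median of 7.07 on GFP arrays. The groups did not overlap, and the difference was 0.98 (SE 0.10, limma adjusted p = 3.87e-06). Irf1, an activator induced by interferon gamma, reached 7.34 to 7.62 on ChREBP arrays, above the 6.68 to 7.11 of GFP arrays, with a difference of 0.57 (SE 0.08). Irf1 is the only member with 2 rows, and their mean gave a difference of 0.36 (adjusted p = 0.000744). Irf8, which directs the myeloid and B cell lineages, had 6.84 to 7.09 (median 6.98) on ChREBP arrays and 6.54 to 6.89 (median 6.76) on GFP arrays. The ranges overlapped at their edge, and its difference of 0.21 (SE 0.06, limma adjusted p = 0.0225) did not pass without ChREBP 6 (adjusted p = 0.0518).

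The ISGF3 subunits Stat2 and Irf9 did not pass the test. Stat2 had 7.97 to 8.55 (median 8.18) on ChREBP arrays and 7.92 to 8.10 (median 8.03) on GFP arrays. ChREBP 1 and ChREBP 3, at 8.55 and 8.47, were its highest arrays, while ChREBP 4 and ChREBP 5, at 8.07 and 7.97, lay within the GFP range. Its difference was 0.21 (SE 0.09, limma adjusted p = 0.0965), and it passed when ChREBP 5 was left out (adjusted p = 0.0339). Irf9, the subunit that contacts DNA, had 7.36 to 7.57 (median 7.50) on ChREBP arrays and 7.26 to 7.67 (median 7.48) on GFP arrays. The ChREBP values of Irf9 all fell inside the GFP range, with a difference of -0.01 (SE 0.07, limma adjusted p = 0.953).

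Of the nucleic acid sensors, 3 of 5 were higher. Zbp1 recognises Z-form nucleic acid and can start necroptosis. On ChREBP arrays it had 8.33 to 8.58 (median 8.43), and on GFP arrays 6.78 to 7.61 (median 7.35). All ChREBP arrays were above all GFP arrays, and the difference was 1.15 (SE 0.11, limma adjusted p = 2.46e-06), a fold of 2.23. The RNA sensors of the cytosol had differences of 0.13 to 0.27. Ifih1 (MDA5), which detects long double-stranded RNA, had 9.85 to 10.10 on ChREBP arrays and 9.66 to 9.85 on GFP arrays, with a difference of 0.22 (SE 0.05, limma adjusted p = 0.00771). Eif2ak2, the kinase PKR that stops translation on double-stranded RNA, had 8.05 to 8.55 (median 8.15) on ChREBP arrays and 7.82 to 8.11 (median 7.95) on GFP arrays. Only ChREBP 1, 2 and 3 stood above the GFP range for this kinase. Its difference was 0.27 (SE 0.09, limma adjusted p = 0.0382).

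Ddx58 (RIG-I), the sensor of RNA with a triphosphate end, had 8.55 to 8.91 on ChREBP arrays and 8.36 to 8.76 on GFP arrays, and its difference of 0.13 (SE 0.07) did not pass. Dhx58 (LGP2), a relative of RIG-I without signalling domain, had 6.11 to 6.74 (median 6.53) on ChREBP arrays and 6.04 to 6.37 (median 6.17) on GFP arrays. Its 4 highest values were on ChREBP 1 to 4, and ChREBP 5 and ChREBP 6 lay within the GFP range. The difference was 0.27 (SE 0.10, limma adjusted p = 0.0546), and Dhx58 passed without ChREBP 5 (adjusted p = 0.00676), without ChREBP 6 (0.0424) and without GFP 4 (0.0451).

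Antiviral effectors made up the largest class, with 9 of 13 members higher and a median difference of 0.49. The Ifit proteins bind foreign RNA or one another. Ifit3 had 9.70 to 10.09 (median 9.87) on ChREBP arrays and 8.55 to 8.96 (median 8.83) on GFP arrays, a difference of 1.06 (SE 0.08, limma adjusted p = 5.09e-07). Ifit2 had 7.71 to 7.99 (median 7.74) on ChREBP arrays and 6.41 to 7.18 (median 6.69) on GFP arrays, a difference of 1.01 (SE 0.11). Ifit1, which binds RNA that lacks methylation of the cap, had 7.72 to 8.12 (median 7.84) on ChREBP arrays and 6.86 to 7.26 (median 7.18) on GFP arrays, a difference of 0.73 (SE 0.08). No GFP array reached the lowest ChREBP array for any of the 3 Ifit genes. These genes resemble one another in sequence, so part of the probe signal could be shared.

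Of the 4 oligoadenylate synthetase family genes among the members 1 rose, with differences of 0.00 to 1.00. Their relative Oas1a, outside the 37, was higher by 0.44 (SE 0.14, adjusted p = 0.0346), and Oas1b had a difference of 0.03 (SE 0.11). Oasl2, a family member with ubiquitin-like domains, had 7.64 to 8.00 (median 7.86) on ChREBP arrays and 6.61 to 6.95 (median 6.87) on GFP arrays. The groups were fully apart, with a difference of 1.00 (SE 0.08, limma adjusted p = 4.11e-07). Oasl1, known in mouse for repressing the translation of Irf7, had 7.12 to 7.73 (median 7.47) on ChREBP arrays and 7.08 to 7.37 (median 7.19) on GFP arrays. Its difference of 0.24 (SE 0.10, adjusted p = 0.0859) passed without ChREBP 5 (adjusted p = 0.0194). Oas2, which makes the activator of RNase L, had 6.08 to 6.47 (median 6.29) on ChREBP arrays and 5.92 to 6.30 (median 6.02) on GFP arrays, and its difference of 0.22 (SE 0.08, adjusted p = 0.0663) passed without ChREBP 5 (0.0288), GFP 5 (0.0333) or GFP 6 (0.0373). Oas3, a synthetase of the same kind, had 5.82 to 6.06 (median 5.96) on ChREBP arrays and 5.84 to 6.08 (median 5.97) on GFP arrays, with a difference of 0.00 (SE 0.05, adjusted p = 0.994).

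The other effectors act on membranes, nucleotides or viral particles. Rsad2 (viperin), a radical SAM enzyme, had 7.39 to 7.97 on ChREBP arrays and 6.61 to 7.30 on GFP arrays, a difference of 0.75 (SE 0.12). Cmpk2, the mitochondrial nucleotide kinase next to it in the genome, had 5.62 to 6.02 on ChREBP arrays and 5.21 to 5.42 on GFP arrays, a difference of 0.49 (SE 0.07). Samhd1, which degrades deoxynucleotides, had 8.82 to 9.53 on ChREBP arrays and 8.10 to 8.76 on GFP arrays, a difference of 0.67 (SE 0.12). Each of these genes was apart between the groups. So was Bst2 (tetherin), which holds budding virus at the cell surface, with 10.19 to 10.56 on ChREBP arrays and 9.93 to 10.09 on GFP arrays and a difference of 0.36 (SE 0.06, limma adjusted p = 0.000742).

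The Mx GTPases showed small differences. Mx1 had 4.71 to 5.13 (median 4.81) on ChREBP arrays and 4.44 to 4.72 (median 4.66) on GFP arrays. Its difference was 0.23 (SE 0.07, limma adjusted p = 0.0318). Mx2, its relative, had 5.60 to 6.24 on ChREBP arrays and 5.43 to 6.24 on GFP arrays. Its difference was 0.16 (SE 0.12, adjusted p = 0.350). Whether the proteins of these genes are functional in these mice was not examined. The values of both genes, like those of Cmpk2 and Oas3, averaged below 6.02, the median of all values on the arrays, and detection calls were not used. The call for Mx1 was lost without ChREBP 1 (adjusted p = 0.0551), ChREBP 3 (0.0654), GFP 1 (0.0626) or GFP 2 (0.0648).

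Genes of the ISG15, ubiquitin and ADP-ribose systems held the member with the largest difference of all. Usp18 removes Isg15 from proteins and blocks signalling at the interferon receptor. Its values were 9.44, 9.44, 9.35, 9.22, 9.19 and 9.45 on ChREBP 1 to 6, and 7.66, 6.97, 7.34, 7.57, 7.61 and 7.34 on GFP 1 to 6. The difference was 1.94 (SE 0.10, limma adjusted p = 1.70e-08), a fold of 3.82. Trim30a, a tripartite motif protein, had 9.35 to 9.81 (median 9.60) on ChREBP arrays and 8.59 to 8.98 (median 8.77) on GFP arrays, a difference of 0.82 (SE 0.08). Trim25, the ubiquitin ligase that acts on RIG-I, had 9.37 to 9.56 on ChREBP arrays and 9.15 to 9.34 on GFP arrays. Its difference was 0.23 (SE 0.05, adjusted p = 0.00274) without overlap.

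The ADP-ribosyltransferases and their partners overlapped between the groups. Parp12, a mono-ADP-ribosyltransferase, had 8.58 to 8.82 on ChREBP arrays and 8.29 to 8.60 on GFP arrays, a difference of 0.25 (SE 0.06, limma adjusted p = 0.0107). Parp14, of the same family, had 8.20 to 8.64 (median 8.42) on ChREBP arrays and 7.95 to 8.35 (median 8.15) on GFP arrays, a difference of 0.25 (SE 0.09, adjusted p = 0.0413). Parp9, a macrodomain protein, had 8.20 to 8.48 (median 8.33) on ChREBP arrays and 8.07 to 8.23 (median 8.17) on GFP arrays, a difference of 0.18 (SE 0.06, adjusted p = 0.0296). Dtx3l is the ubiquitin ligase that partners Parp9. It had 8.52 to 8.94 (median 8.72) on ChREBP arrays and 8.43 to 8.79 (median 8.69) on GFP arrays, and its difference of 0.05 (SE 0.07, adjusted p = 0.620) did not pass. The calls of Eif2ak2, Parp14 and Parp9 were the least firm of the 24. Leaving out any of ChREBP 1, 2 or 3 or GFP 2, 3, 5 or 6 ended that of Eif2ak2, at adjusted p values of 0.0603 to 0.0859. Leaving out any of ChREBP 1, 2, 3 or 6 or GFP 2, 3, 4 or 6 ended that of Parp14, at 0.0595 to 0.0889. That of Parp9 was lost without ChREBP 1, 2 or 6 or GFP 2 or 6, at 0.0575 to 0.0661.

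Of the 4 measured members outside these classes, 3 were higher. Ifi27, a small hydrophobic protein, had 11.28 to 11.58 (median 11.45) on ChREBP arrays and 10.21 to 10.52 (median 10.37) on GFP arrays, a difference of 1.04 (SE 0.06, limma adjusted p = 4.67e-08). Xaf1, which binds the apoptosis inhibitor XIAP, had 7.81 to 8.18 (median 7.90) on ChREBP arrays and 6.90 to 7.41 (median 7.13) on GFP arrays, a difference of 0.81 (SE 0.08). Rtp4, a receptor transporter protein, had 9.78 to 10.26 (median 9.98) on ChREBP arrays and 9.06 to 9.37 (median 9.24) on GFP arrays, a difference of 0.76 (SE 0.08). The groups were apart for all 3. Ifi35, a leucine zipper protein, had a median of 7.17 on ChREBP arrays and 7.15 on GFP arrays with overlapping ranges, and its difference of -0.04 (SE 0.06, adjusted p = 0.686) did not pass.

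**Figure D2:**
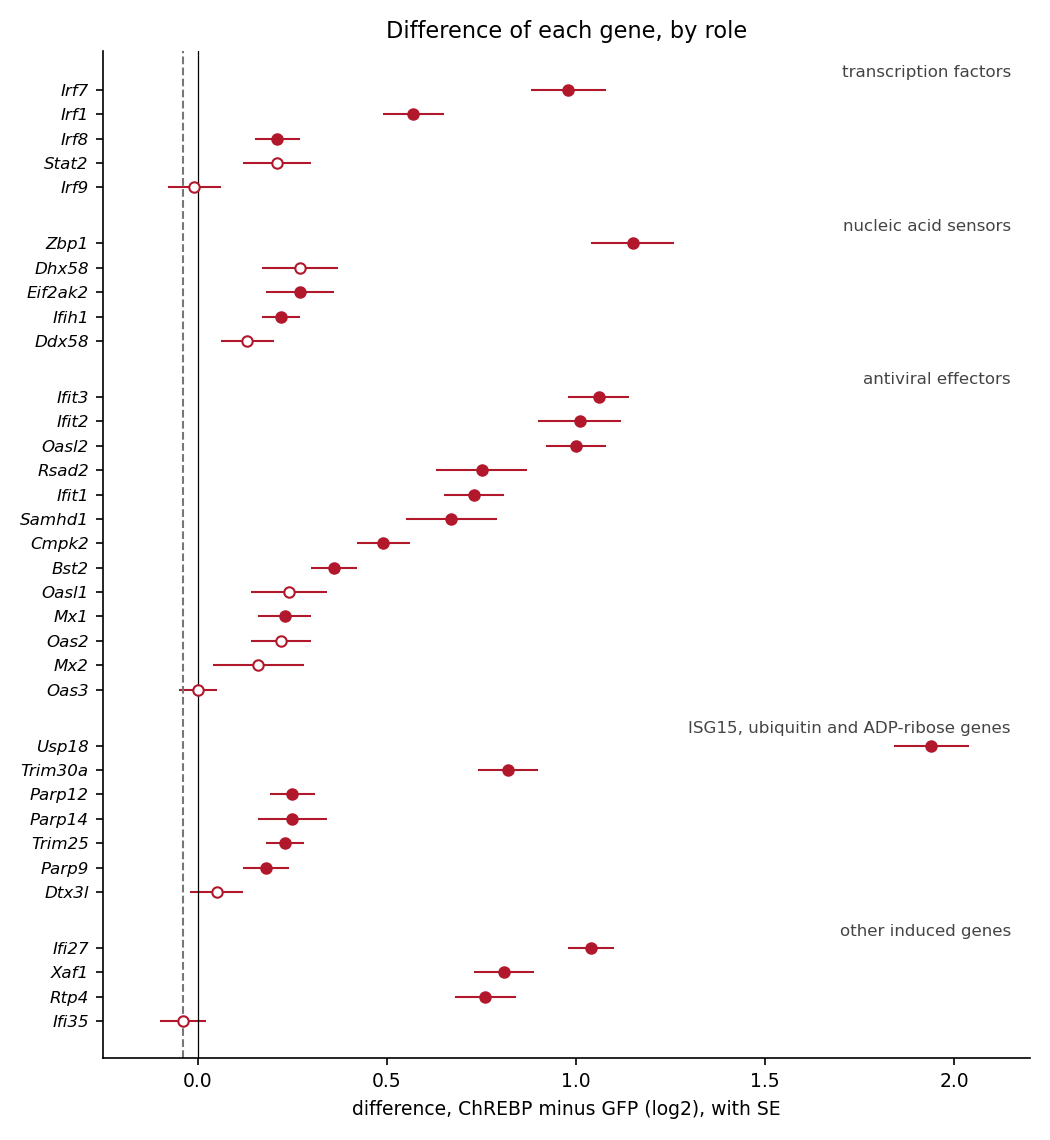
Difference of each member, ChREBP minus GFP (log2, horizontal axis), with its SE, grouped by role; filled circles passed at an adjusted p under 0.05 and open circles did not, and the dashed line is the median of all genes, -0.04. Usp18 lies at 1.94, while every class also holds a gene that did not pass.

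Several members are neighbours in the genome, and their differences were compared directly. There are 10 pairs that lie under 100 kilobases apart in the RefSeq gene table. For each, the value of one gene minus that of the other was compared between groups with a two-sided exact permutation test over all 924 assignments, whose smallest p is 0.00216. Of the 10 pairs, 2 passed after Benjamini-Hochberg adjustment. Oasl2 minus Oasl1 was 0.18 to 0.88 on ChREBP arrays and -0.56 to -0.17 on GFP arrays, so that the difference of Oasl2 exceeded that of its neighbour by 0.77 (SE 0.12, exact p = 0.00216, adjusted p = 0.0108). Ifit3 minus Ifit1 was 1.90 to 2.13 on ChREBP arrays and 1.49 to 1.84 on GFP arrays, a gap of 0.32 (SE 0.06, exact p = 0.00216, adjusted p = 0.0108). Both gaps had the same sign and passed in every setting tried, at adjusted p values up to 0.0476. The other pairs, among Ifit2, Mx1 and Mx2, Oas2 and Oas3, Rsad2 and Cmpk2, and Parp14, Dtx3l and Parp9, overlapped, at adjusted p values of 0.0909 to 0.701. Without GFP 1 the gap of Ifit2 over Ifit1 passed (adjusted p = 0.0289), and without GFP 3 so did those of Parp14 over Dtx3l (0.0216) and of Parp9 over Dtx3l (0.0144).

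Promoter sequence is shown because the same response element core was found in members that rose and in members that did not pass. RefSeq promoters of build GRCm38.p6, from 250 bases before to 50 after each start, were searched on both strands for the core of the interferon-stimulated response element, GAAANNGAAA, and for the gamma-activated site, TTCNNNGAA. Of the measured members, 24 had a promoter entry and 10 had none. The response element core was present in 10 of the 24 (41.7%), against 3.99% of all 27025 genes searched. It was found in 7 of the 17 members with a promoter that rose and in 3 of the 7 that did not pass. The gamma-activated site was present in 7 of the 24 (29.2%), against 9.55% of all genes, and was found in 6 of the 17 that rose and 1 of the 7 that did not pass. A paired E-box element of the kind bound by ChREBP, searched as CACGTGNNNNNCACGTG, occurred in none of the 32851 promoters, and elements with mismatches were not searched. Windows of 80 bases follow, 5′ to 3′ in the direction of the gene, with the core element in capitals on either strand and overlapping matches run together.
Ifit3, chr19:34583355-34583434, plus strand: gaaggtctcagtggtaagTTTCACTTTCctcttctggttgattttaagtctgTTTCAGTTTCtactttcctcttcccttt
Ifit1, chr19:34640759-34640838, plus strand: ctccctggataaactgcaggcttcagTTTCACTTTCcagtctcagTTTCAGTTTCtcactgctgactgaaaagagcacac
Rsad2, chr12:26456528-26456607, minus strand: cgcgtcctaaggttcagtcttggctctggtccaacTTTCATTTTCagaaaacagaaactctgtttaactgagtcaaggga
Bst2, chr8:71537555-71537634, minus strand: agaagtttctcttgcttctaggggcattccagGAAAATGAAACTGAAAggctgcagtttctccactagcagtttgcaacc
Stat2, chr10:128270248-128270327, plus strand: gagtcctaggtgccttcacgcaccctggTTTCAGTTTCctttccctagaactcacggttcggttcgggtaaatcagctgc
Oas3, chr5:120777690-120777769, minus strand: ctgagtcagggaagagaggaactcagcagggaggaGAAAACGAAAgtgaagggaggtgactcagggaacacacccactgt

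Ifit3 and Ifit1 each carry 2 copies of the core and rose by 1.06 and 0.73 on the log2 scale. The copies lie at 156 and 122 bases and at 104 and 85 bases before the start of the promoter entry. For Ifit3 that entry lies within the RefSeq gene, which begins at chr19:34583119. Rsad2, with 1 copy at 120 bases, rose by 0.75, and Bst2, with 2 overlapping copies at 130 and 124 bases, rose by 0.36. Stat2 has a copy at 222 bases and Oas3 at 75 bases, and neither passed the test, with differences of 0.21 and 0.00. Trim30a has a copy 36 bases before 1 of its starts, while those of Ddx58, Eif2ak2 and Ifih1 lie after the start. A match is a description of the sequence and not evidence that a factor binds there.

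Upstream of these genes, none of 15 measured interferon ligand genes passed the test as higher and 1 passed as lower. Among all genes, 13.3% were higher and 13.7% lower, so counts over 15 genes say little about the ligands as a group. The lower gene was Ifne, with 4.95 to 5.15 on ChREBP arrays and 5.10 to 5.30 on GFP arrays. Its difference was -0.17 (limma adjusted p = 0.0205). Ifnb1, the first type I interferon made by most infected cells, had 4.15 to 4.49 on ChREBP arrays and 4.24 to 4.61 on GFP arrays, a difference of -0.17 (SE 0.07, adjusted p = 0.104). Ifng, the ligand made by T and NK cells, had 5.47 to 5.59 on ChREBP arrays and 5.50 to 5.61 on GFP arrays. The median difference of the ligands was -0.15. Without ChREBP 4 the number of lower ligands was 4, and without GFP 1, GFP 2 or GFP 4 it was 2. Many alpha interferon genes are near copies of one another, so their rows are not independent, and most ligand values lay near or below the median of all values.

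Of the 6 receptor genes, 3 were higher, against 13.3% of all genes. Il10rb, a subunit shared by the receptors of interferon lambda and interleukin 10, had 7.46 to 7.74 on ChREBP arrays and 6.44 to 7.04 on GFP arrays, a difference of 0.89 (SE 0.09, limma adjusted p = 3.84e-06). Both chains of the interferon gamma receptor rose, Ifngr2 by 0.42 (SE 0.09) and Ifngr1 by 0.31 (SE 0.07). The type I receptor chains did not pass, with differences of 0.04 (SE 0.07) for Ifnar1 and -0.11 (SE 0.05, adjusted p = 0.0856) for Ifnar2. None of the 3 measured receptor kinases passed in the fit of all arrays, with Jak2 nearest at 0.19 (SE 0.07, adjusted p = 0.0525), and 1 passed without ChREBP 4 or without GFP 3. Of 7 inhibitors of the pathway, Ptpn6 (SHP-1), a phosphatase of blood cells, was higher by 0.22 (SE 0.05). Socs1 and Socs3, the classic feedback inhibitors, had differences of -0.09 (SE 0.06) and -0.03 (SE 0.08).

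Of 15 sensors and adaptors that lie upstream of interferon production, 5 were higher and 2 lower, the second a share close to the 13.7% of all genes. Aim2, a sensor of cytosolic DNA, differed by 0.70 (SE 0.10), Sting1, the adaptor downstream of cGAS, by 0.51 (SE 0.10), and the endosomal RNA receptors Tlr3 and Tlr7 by 0.49 (SE 0.11) and 0.44 (SE 0.07). Tlr4, the receptor for lipopolysaccharide, was higher by 0.35 (SE 0.07). Irf5 and Traf6 were lower, at -0.23 (SE 0.07, adjusted p = 0.0325) and -0.22 (SE 0.07, adjusted p = 0.0263). The number of lower genes in this list was 0 without ChREBP 3, ChREBP 6 or GFP 6, and 1 without ChREBP 1, ChREBP 2, ChREBP 5, GFP 1 or GFP 5. Cgas, Mavs, Tbk1 and Irf3, which carry the signal to the interferon promoters, had differences of 0.04, -0.11, 0.00 and -0.01, and none of these 4 passed.

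Of 38 further interferon-induced genes measured outside the 37, 21 were higher and 2 lower, with a median difference of 0.36. Among all genes, 13.3% were higher and 13.7% lower. This list was chosen with earlier results of these data known, so its counts are a description. The largest were Mlkl, the executioner of necroptosis, with 8.38 to 8.68 on ChREBP arrays and 6.68 to 7.15 on GFP arrays (difference 1.57, SE 0.09), Lgals3bp, a secreted glycoprotein, with a difference of 1.54 (SE 0.08), and the guanylate-binding protein Gbp3 with 1.47 (SE 0.07). Casp4, the inflammatory caspase that senses lipopolysaccharide, differed by 0.97 (SE 0.08). Psmb9, Tap1 and Psmb8, which act in antigen processing, were higher by 0.74, 0.71 and 0.43. The highly expressed Ifitm2, Ifitm3 and B2m had differences of 0.01, -0.03 and -0.02, and none passed. Pnpt1, an RNA exonuclease of mitochondria, was lower at -0.44 (SE 0.07), and Helz2, a helicase, at -0.31 (SE 0.09, adjusted p = 0.0223). Without GFP 1 or GFP 5 the number of lower genes in this list was 1.

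Of 10 measured genes known mainly as targets of interferon gamma, 7 were higher, against 13.3% of all genes. The median difference of this list was 0.68. It too was chosen with earlier results of these data known. Cd274, the immune checkpoint ligand PD-L1, had 7.06 to 7.32 on ChREBP arrays and 6.05 to 6.33 on GFP arrays (difference 1.05, SE 0.06). Gbp4 differed by 1.03 (SE 0.17), Cxcl9, a chemokine for T cells, by 1.00 (SE 0.15), and Fcgr1, the high-affinity IgG receptor of macrophages, by 0.75 (SE 0.09). In all 7 every ChREBP array lay above every GFP array, which held for 8.33% of all genes. Ciita, Iigp1 and Ido1 did not pass, with differences of 0.01, -0.01 and -0.02.

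**Figure D3:**
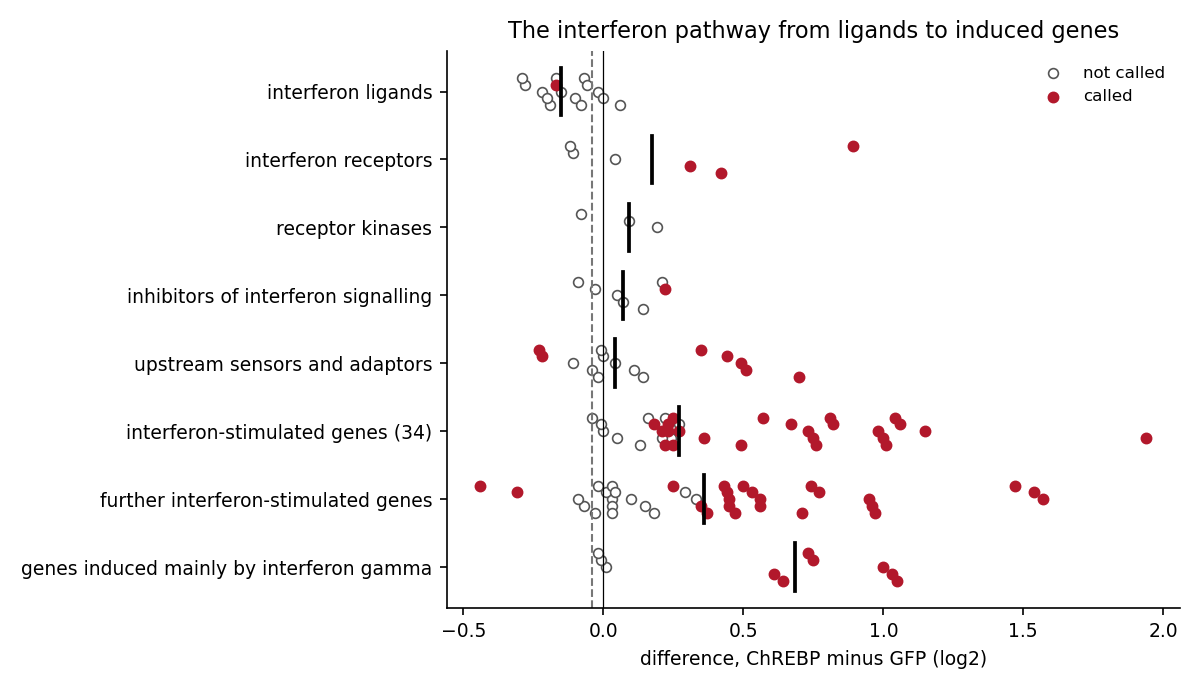
Difference of single genes, ChREBP minus GFP (log2, horizontal axis), from the ligands at the top to interferon-induced genes at the bottom; filled circles passed at an adjusted p under 0.05, black bars are medians and the dashed line is the median of all genes, -0.04. Medians lie at -0.15 for the ligands, 0.27 for the 34 members and 0.68 for the genes induced mainly by interferon gamma.

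The level of the members varied among ChREBP livers. As the median deviation of the 34 genes from their GFP mean, ChREBP 1 to 6 gave 0.53, 0.41, 0.41, 0.33, 0.18 and 0.30, and GFP 1 to 6 gave 0.08, -0.08, -0.04, -0.03, 0.11 and -0.06. All ChREBP arrays lay above all GFP arrays on this summary, whose direction follows from the counts above and was not tested. ChREBP 1 was the highest ChREBP array for 23 of the 34 members, and ChREBP 5 was the lowest for 18. ChREBP 1 exceeded every GFP array for 31 members, and ChREBP 5 did so for 20.

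Markers of other cells that respond to interferon moved with the groups. Among all genes, 13.3% were higher and 13.7% lower. Of 14 Kupffer cell and macrophage markers, 8 were higher and 4 lower, with a mean level of 8.31 to 8.61 on ChREBP arrays and 8.02 to 8.28 on GFP arrays. Cd14 was higher by 1.45 (SE 0.12) and Cd5l by 0.83 (SE 0.11), while Timd4, a marker of resident Kupffer cells, was lower at -1.59 (SE 0.10), as were Clec4f, Marco and Vsig4 at -0.41, -0.35 and -0.21. The number of lower macrophage markers was 2 without ChREBP 1, ChREBP 5, GFP 1, GFP 2 or GFP 3. Of 13 T and NK cell markers 8 were higher, among them Gzma by 1.85 (SE 0.24) and Cd3g by 1.07 (SE 0.18), with a mean level of 5.92 to 6.47 on ChREBP arrays and 5.47 to 5.81 on GFP arrays. Within the ChREBP livers this mean was highest on ChREBP 5, where the median deviation of the members was lowest. It was lowest on ChREBP 1, where that deviation was highest, and so was the macrophage mean, at 8.31. Samhd1 and Oasl2 nevertheless had their highest values on ChREBP 5, at 9.53 and 8.00. ChREBP 5 also carried acinar transcripts and had the highest B cell, neutrophil, endothelial and cholangiocyte means of all arrays, so it stood apart in many lists. The hepatocyte markers, given above, were mostly lower in ChREBP livers. The part of any of these cells in the values of the members was not tested.

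In each of the lists for other cells that follow, at most 2 markers passed, and 27.0% of all genes did. Of 7 plasmacytoid dendritic cell markers, the cells known for making the most type I interferon, 1 was higher, Ly6d (3.47, SE 0.14), which other cells also express, and the more specific Siglech had 5.74 to 5.92 on ChREBP arrays and 5.59 to 5.91 on GFP arrays. The mean of that list was 6.76 to 7.02 on ChREBP arrays and 6.18 to 6.47 on GFP arrays, a gap that rests on Ly6d, since the other markers had differences of -0.06 to 0.22 and the list median was 0.04. Of 7 conventional dendritic cell markers 1 was higher, Itgax, by 0.94 (SE 0.10), and the list averaged 5.67 to 5.82 on ChREBP arrays and 5.46 to 5.64 on GFP arrays. None of 7 B cell markers (means of 5.04 to 5.61 on ChREBP arrays and 5.18 to 5.37 on GFP arrays) or of 9 neutrophil markers (5.62 to 6.30 on ChREBP arrays and 5.46 to 5.77 on GFP arrays) passed. Among 8 sinusoidal endothelial markers Lyve1 was higher (means of 7.88 to 8.36 on ChREBP arrays and 8.07 to 8.27 on GFP arrays), among 7 stellate cell markers Pdgfrb was higher and Reln lower (7.68 to 8.14 on ChREBP arrays and 7.50 to 8.21 on GFP arrays), and among 5 cholangiocyte markers Epcam and Cftr were higher (6.00 to 6.69 on ChREBP arrays and 5.81 to 6.27 on GFP arrays). Without ChREBP 4, 2 markers of each dendritic cell list were higher, and the count of higher stellate cell markers, 1 over all arrays, became 0 or 2 in 9 of the 12 fits with 1 array left out. The part of these cells in the results was not tested.

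**Figure D4:**
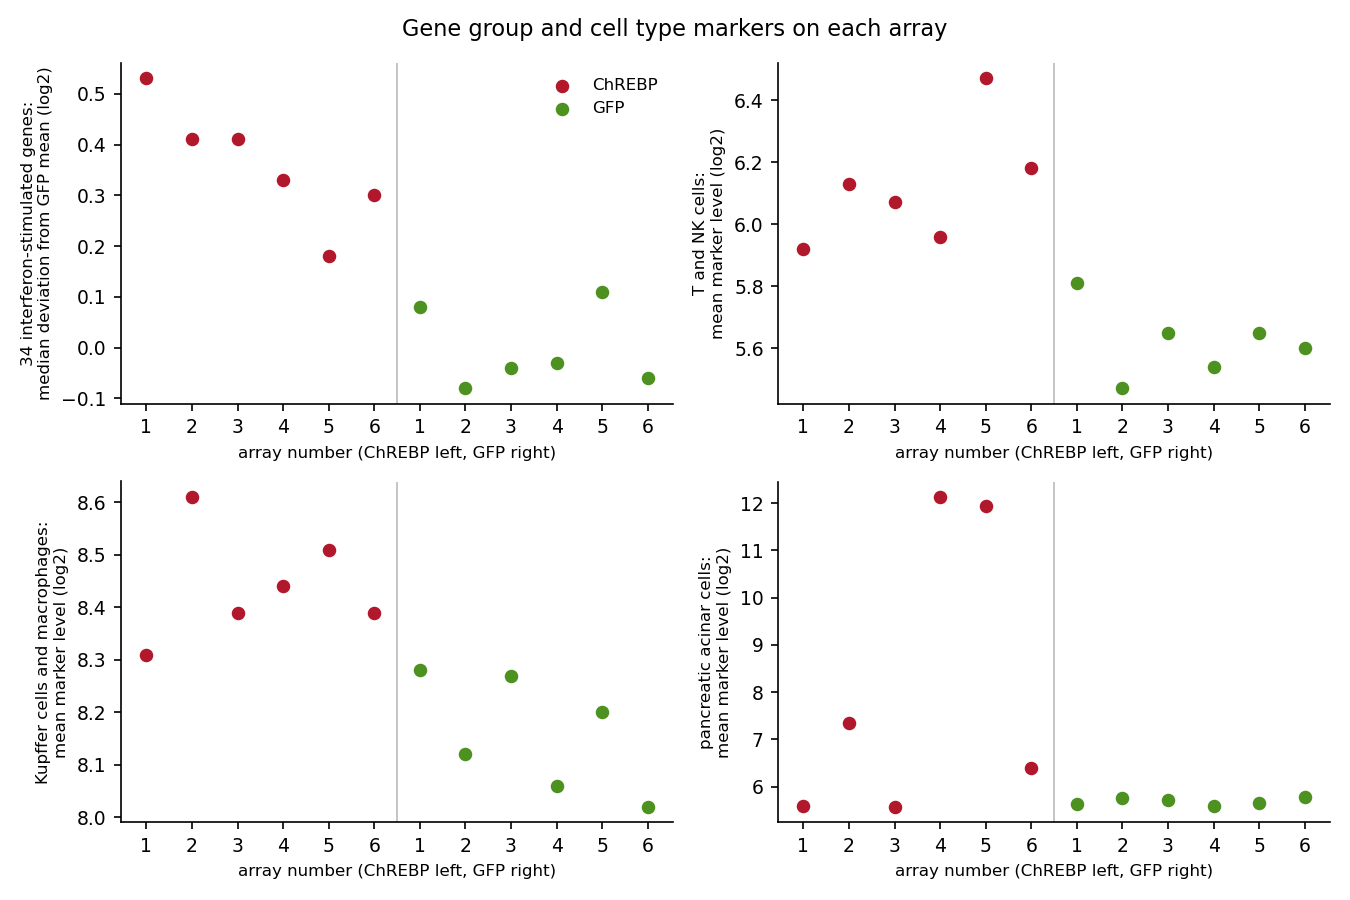
Values by array (numbers on the horizontal axis, ChREBP arrays left in red and GFP arrays right in green) for the median deviation of the 34 members from their GFP mean and for the mean level of T and NK cell, macrophage and pancreatic acinar markers, all in log2. The median deviation is highest on ChREBP 1 (0.53) and lowest among ChREBP arrays on ChREBP 5 (0.18), the array with the highest T and NK cell mean (6.47). ChREBP 5 stood apart in many marker lists, and no relation between these values was tested.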

How the data were processed

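Total RNA of 12 livers, 6 per adenovirus, was amplified, labelled with biotin by means of Nugen kits and read on Affymetrix mouse gene arrays. The values are log2 values deposited by the authors, made with RMA and Partek according to the submitters' notes, which give no version. RMA subtracts background, quantile-normalises the arrays and summarises probes by median polish. It gives all arrays 1 distribution, so each value is relative to the other transcripts of that array. The study's array methods describe another experiment and guided only the choice of test. Intensities, detection calls and scan dates were not used here, so no array batch was tested, and the number of arrays limits the precision.

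Of 35556 rows, 21789 carry 1 symbol, 1621 several, and 12146 have no symbol in the platform annotation or are absent from it. Symbols were updated through the Entrez ID (21698 matched) to the RefSeq gene table of GRCm38.p6, used only for names and neighbours. The brightest row stood for each of 19938 genes, without a filter on dim genes. The test for each gene was the two-sided moderated one of limma 3.58.1 under R 4.3.3, fitted without covariates, and a gene passed at a Benjamini-Hochberg adjusted p under 0.05 over all genes. The SE is the moderated one. Neighbouring pairs were compared with exact permutation tests. Both procedures were tested on data with known answers. The members and lists were chosen with earlier results of these data known, so counts over a list are descriptions without a test. All 37 members were named. Values by group were given for the 10 members that passed with the largest differences, for members whose call changed under an alternative and for members with an array apart from its group. Most genes named from the pathway and marker lists passed with large differences or were needed to complete a count. Others with a smaller p were left unnamed, and some lists had no gene named. Ifnb1, Ifng, the receptor chains, Socs1, Socs3, the signalling adaptors, Psmb8, Psmb9, Tap1, the Ifitm genes, B2m, Timd4 and Siglech were named for their role, after their values were seen.

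Alternatives used another quantile normalization or median centring, dropped the dimmest 25% of genes, averaged rows per gene, tested all rows, or used trended or robust moderation, array weights, the analysis of variance that the methods name, the replicate number as a block, or left out each array. After the data were seen, ChREBP 4 and 5 were left out together, and so were ChREBP 6 and GFP 6; the comparison of neighbouring pairs and its settings were added at the same point.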

Additional observations from a re-analysis of the deposited data

Results flagged for a closer look

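Values of a member that stood far from the rest of their group of 6 were found in 3 of 68 groups, by the gap to the nearest value relative to the whole range; chance alone flags about 1 in 20 groups, here 3.4. For Ifit2, the ChREBP 1 array reached 7.99, while the other ChREBP arrays had 7.71 to 7.77. For Ifit1, the GFP 4 array had 6.86, below the 7.11 to 7.26 of the other GFP arrays. For Dtx3l, the GFP 3 array had 8.43, below the 8.66 to 8.79 of the other GFP arrays. Ifit2 and Ifit1 stayed higher in ChREBP livers, and Dtx3l stayed without a call, in each of the settings tried, those without these arrays included.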

How the results depend on the processing

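Over the 24 other settings, 20 to 28 members were higher in ChREBP livers and 0 were lower, with a median difference of 0.22 to 0.35. Those settings called 2347 to 2779 of all genes higher, against 2645 in the main fit. The lowest count of members came with repeated quantile normalization, without ChREBP 1 and without GFP 2, and the highest without ChREBP 5, alone or with ChREBP 4. Of the 24 members called, 19 passed in every setting. The calls of Eif2ak2, Irf8, Mx1, Parp14 and Parp9 were lost in at least 1, and Dhx58, Oas2, Oasl1 and Stat2 passed in at least 1. Differences near 0 changed sign. Oas3 was -0.01 with quantile normalization, -0.02 with median centring, -0.02 without ChREBP 6 and GFP 6, and -0.02 to 0.03 with single arrays left out. Irf9 was 0.0006 with array weights, 0.05 without ChREBP 4 and 5, and -0.05 to 0.03 with single arrays left out. Of the gaps between neighbours, Ifit2 minus Ifit3 ran from -0.11 to 0.03 and Mx1 minus Mx2 from -0.03 to 0.11 with single arrays left out. The causes were not tested. The replicate numbers are shared by both groups, and the labels state no pairing. The deviations of same-numbered arrays correlated at -0.06 to 0.25, and only number 6, at 0.25, matched its own best. These correlations cannot show whether same-numbered arrays share a batch. With the replicate number as a block 23 members and 2380 of all genes were higher, with a median over the members of 0.27. Irf8 and Parp9 then lost their call and Dhx58 gained one. Median centring moved the median of all genes to -0.06. Dim members lie where background takes a larger part of the signal.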
